A study of Mus musculus with 9 samples.

Results

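Srm encodes spermidine synthase, and its transcript was measured here with those of the other core enzymes and regulators of polyamine metabolism in mouse liver. The 9 genes are Odc1, Amd1, Srm, Sms, Sat1, Smox, Oaz1, Oaz2 and Azin1, and their probe sets were found by gene symbol in the annotation of the array, in which 18193 genes have a probe set of their own. Srm was chosen on its signal in 1 comparison of these arrays, DCAA against corn oil, where it lay lower, and the other genes were added as its pathway. The Srm values against corn oil, with their SE and interval, are therefore given as a description. The call of Srm in that comparison is counted below but not read as evidence. Of 45037 probe sets on the array, 18 carried a member symbol. Of these, 14 carried that symbol alone and stood for 7 genes, and 11 of them passed the filter on dim signals. The 3 that did not pass were the dimmest probe set each of Smox, Oaz2 and Azin1. Another 4 were shared with a pseudogene, namely 3 of Sms with Sms-ps and 1 of Oaz1 with Oaz1-ps, and 3 of these passed. Amd1, the gene of adenosylmethionine decarboxylase, matched no probe set, so its transcript was not analysed here.

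The arrays came from female MRL +/+ mice, an inbred strain prone to autoimmune disease, killed at 11 weeks of age. Mice were injected with dichloroacetyl chloride (DCAC), with dichloroacetic anhydride (DCAA), or with the corn oil vehicle only. DCAC is an acyl chloride and DCAA the matching acid anhydride, so that the same dichloroacetyl group is attached to chloride in one and to dichloroacetate in the other. Each compound was given into the peritoneum at 0.2 mmol/kg in 100 µl of corn oil, with 2 injections per week for 6 weeks, and the livers were collected 24 h later than the final injection. There were 3 mice per group and 1 array per liver; the sample labels call the controls untreated, while the study design describes them as given corn oil. The number of mice limits the precision of every value. In RNA of whole liver, fewer cells of a type and less RNA per cell cannot be told apart.

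Polyamines are small positively charged molecules that bind nucleic acids and are needed for translation and growth. Ornithine decarboxylase (Odc1) makes putrescine, and spermidine synthase (Srm) and spermine synthase (Sms) each add an aminopropyl group taken from decarboxylated S-adenosylmethionine, which Amd1 supplies. Spermidine/spermine N1-acetyltransferase (Sat1) acetylates polyamines for export or oxidation, and spermine oxidase (Smox) turns spermine back into spermidine. Antizymes (Oaz1, Oaz2) bind ornithine decarboxylase, send it to the proteasome and curb polyamine uptake, and antizyme inhibitor (Azin1) binds antizymes in its place. Odc1 is a textbook target of the transcription factor MYC, and regenerating liver is a classic setting of Odc1 induction.

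RefSeq promoters were matched for 7 of the 9 genes, and Srm and Azin1 had no entry. Those of Sat1 and Odc1 are shown, because Sat1 differed most between the compounds and Odc1 encodes the enzyme at the entry of the pathway. Each is the 250 bases before the transcription start in the build GRCm38.p6, 5′ to 3′ along the gene, with GC boxes (GGGCGG, or CCGCCC on the other strand) in capitals. The Sat1 stretch is chrX:155216450-155216699 on the minus strand, and the Odc1 stretch is chr12:17544623-17544872 on the plus strand.
Sat1: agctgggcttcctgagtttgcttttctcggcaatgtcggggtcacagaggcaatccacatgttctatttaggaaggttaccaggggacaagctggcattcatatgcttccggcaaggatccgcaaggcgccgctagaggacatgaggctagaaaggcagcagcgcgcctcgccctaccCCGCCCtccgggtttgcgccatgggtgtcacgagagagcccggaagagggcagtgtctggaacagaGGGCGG
Odc1: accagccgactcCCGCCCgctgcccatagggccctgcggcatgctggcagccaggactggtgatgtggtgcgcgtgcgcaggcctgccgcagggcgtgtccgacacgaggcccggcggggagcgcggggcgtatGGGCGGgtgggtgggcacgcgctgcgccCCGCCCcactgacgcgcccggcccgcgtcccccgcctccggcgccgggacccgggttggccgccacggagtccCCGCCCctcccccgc
The Sat1 stretch held 2 GC boxes and that of Odc1 held 4. Neither held the E-box CACGTG, the site that MYC with its partner MAX can bind, which reads the same on both strands. Of 32851 mouse promoters of the same length, 6.02% held CACGTG and 32.7% held a GC box on either strand. Of the promoters listed for Sms, 1 held an E-box. These matches describe letters in a window and say nothing of binding in these livers.

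Before the results, 1 array needs to be set aside. The library labelled control 2 differed from the other 8, and its values are given separately. Its median Spearman correlation with the others was 0.806, against 0.859 to 0.929 among the 8. The summed signal of hepatocyte markers was 53161 on control 2, with 4 of the 15 markers on the array at or under the low-signal floor, against 475634 to 664907 on the 8 arrays, where 0 were. Kidney markers, 18 of 20 on the array, summed to 180741 on control 2 and to 21486 to 34858 on the others. A measure of RNA integrity, the 3'/5' signal ratio of the pyruvate carboxylase control probe sets, was 2.85 to 3.99 on the control arrays, DCAC 1 and DCAC 2, and 6.43 to 12.8 on DCAC 3 and all 3 DCAA arrays. It follows the groups in part.

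Srm signal was lower in every treated liver than in the corn oil livers, and lowest with DCAA. It was 3296 and 2649 in corn oil livers 1 and 3, then 1968, 1316 and 1473 with DCAC, and 1298, 1305 and 1248 with DCAA. Neither treated group overlapped the corn oil group, and the DCAA livers lay within a narrow band under the lowest DCAC liver. The group means were 2972 ± 457 (SD, n = 2), 1586 ± 340 (SD, n = 3) and 1283 ± 30.8 (SD, n = 3). On the log2 scale the difference from corn oil was -1.20 (SE 0.19) with DCAA, or 2.30-fold lower, and -0.92 (SE 0.19) with DCAC, or 1.89-fold lower. Both comparisons use the same 2 controls. Among the arrays with the low 3'/5' ratio, both DCAC livers (1968 and 1316) were under both corn oil livers. Srm was chosen on these same corn oil readings, so nothing is read from that order. A fit that takes the ratio class as a block gave a log2 difference of -1.08 for DCAA and -0.88 for DCAC. Both corn oil arrays are in the low class and all DCAA arrays in the high class. The class effect therefore comes only from DCAC 3 against DCAC 1 and 2, and the DCAA value of that fit rests on DCAC 3. The part of the ratio in the Srm values was not tested further. Control 2 read 1056, under all 8, and with it in the corn oil group the difference became -0.71 for DCAA and -0.42 for DCAC.

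Odc1, which catalyses the committed step before Srm, had no probe set that passed the test against corn oil. Its brightest probe set read 3585 and 3272 in corn oil livers, 2881, 2639 and 1774 with DCAC, and 2620, 3082 and 2132 with DCAA. All 6 treated livers lay under both corn oil livers, but each treated group spread widely. The log2 difference was -0.52 (SE 0.22, limma adjusted p = 0.967) with DCAC and -0.41 (SE 0.22, adjusted p = 0.467) with DCAA. The 2 dimmer Odc1 probe sets overlapped between the groups, with differences of -0.15 and 0.09 for DCAC and -0.10 and -0.08 for DCAA. The lowest reading of the brightest probe set, 1774, came from DCAC 3, which has the highest 3'/5' ratio. When that class was taken as a block, the DCAA difference turned to 0.23, a value that rests on DCAC 3. The part of the ratio in the Odc1 values was not tested further.

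Sms, which makes spermine from the spermidine that Srm produces, was read only by probe sets shared with its pseudogene. The brighter one gave 525 and 618 in corn oil livers, 551, 626 and 657 with DCAC, and 584, 617 and 571 with DCAA. The groups overlapped, and the log2 differences were 0.10 (95% interval -0.34 to 0.53) with DCAC and 0.05 (-0.39 to 0.49) with DCAA. The dimmer shared probe set differed by -0.38 with DCAC and 0.24 with DCAA, and neither passed the test.

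**Figure D1:**
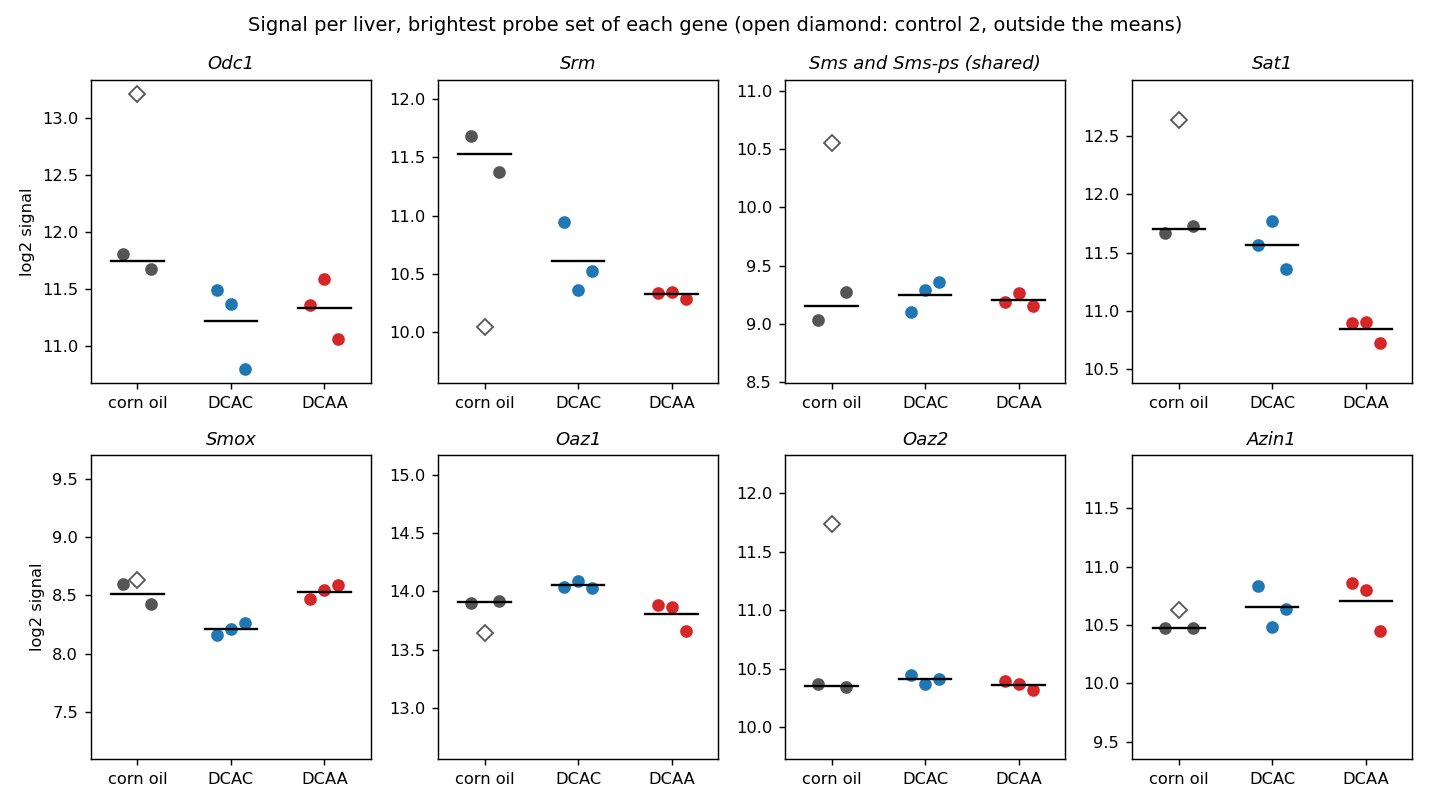
Log2 signal of the brightest probe set of 8 polyamine genes, with 1 filled point per liver in the corn oil (n = 2), DCAC (n = 3) and DCAA (n = 3) groups, a line at each group mean and an open diamond for control 2, which is outside the means. Srm lay lower in all treated livers than in both corn oil livers, and Sat1 lay lower with DCAA than in both other groups.

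Sat1, the acetyltransferase that starts polyamine breakdown, was lower with DCAA and near the corn oil level with DCAC. The corn oil livers read 3246 and 3401, the DCAC livers 3033, 3495 and 2630, and the DCAA livers 1905, 1916 and 1695. Every DCAA liver lay under every liver of the other groups, while DCAC and corn oil overlapped. Group means were 3324 ± 110 (SD, n = 2) for corn oil, 3052 ± 433 (SD, n = 3) for DCAC and 1839 ± 125 (SD, n = 3) for DCAA. The log2 difference of DCAA from corn oil was -0.86 (SE 0.16, 95% interval -1.21 to -0.50), or 1.81-fold lower, and its limma adjusted p of 0.0938 did not pass the threshold of 0.05. With array weights, which give less weight to the more variable arrays, it passed (-0.83, adjusted p = 0.0314). For DCAC the difference was -0.13 (-0.48 to 0.22, adjusted p = 0.987). The 3'/5' ratio is high on all DCAA arrays, and with its class as a block the DCAA difference was -0.55 (adjusted p = 0.805). The class effect in that fit rests on DCAC 3. DCAC 3, the 1 DCAC liver with a high ratio, read 2630, the lowest of the DCAC livers and above the 1695 to 1916 of the DCAA livers. The part of the ratio in the Sat1 values was not tested further.

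Smox signal was low beside that of the other members, and slightly lower with DCAC. It read 387 and 344 in corn oil livers, 287, 297 and 308 with DCAC, and 354, 373 and 385 with DCAA. The DCAC livers lay under all the others, and DCAA overlapped corn oil. The log2 difference of DCAC from corn oil was -0.30 (SE 0.24) and that of DCAA 0.02 (SE 0.24), and neither passed the test.

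The antizymes and the antizyme inhibitor differed little from corn oil with either compound. Oaz1 read 15286 and 15521 in corn oil livers, 16784, 17440 and 16745 with DCAC, and 15166, 14957 and 12972 with DCAA. DCAC livers lay above corn oil and DCAA livers under it, with log2 differences of 0.14 (95% interval -0.15 to 0.43) and -0.10 (-0.39 to 0.19), neither past the threshold; the DCAC difference turned to -0.04 with quantile normalization. The Oaz1 probe set shared with Oaz1-ps read 9121 and 9127, then 9682, 9510 and 10501 with DCAC, and 8379, 7674 and 4697 with DCAA. It showed the same order of groups, with differences of 0.12 and -0.44, and its lowest value was DCAA 3.

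Oaz2, another antizyme, was close to the corn oil level by its brightest probe set. That probe set read 1319 and 1297 in corn oil livers, 1398, 1324 and 1364 with DCAC, and 1348, 1324 and 1273 with DCAA. Its log2 difference was 0.06 (95% interval -0.28 to 0.40) with DCAC and 0.01 (-0.33 to 0.34) with DCAA. A dimmer Oaz2 probe set was lower on average, by -0.28 and -0.34 on the log2 scale, and overlapped corn oil in both groups. Azin1 read 1422 and 1421 in corn oil livers, 1824, 1432 and 1597 with DCAC, and 1859, 1786 and 1394 with DCAA. Its DCAC livers lay above corn oil, DCAA 3 lay under it, and the differences were 0.18 (-0.22 to 0.57) and 0.23 (-0.17 to 0.62).

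**Figure D2:**
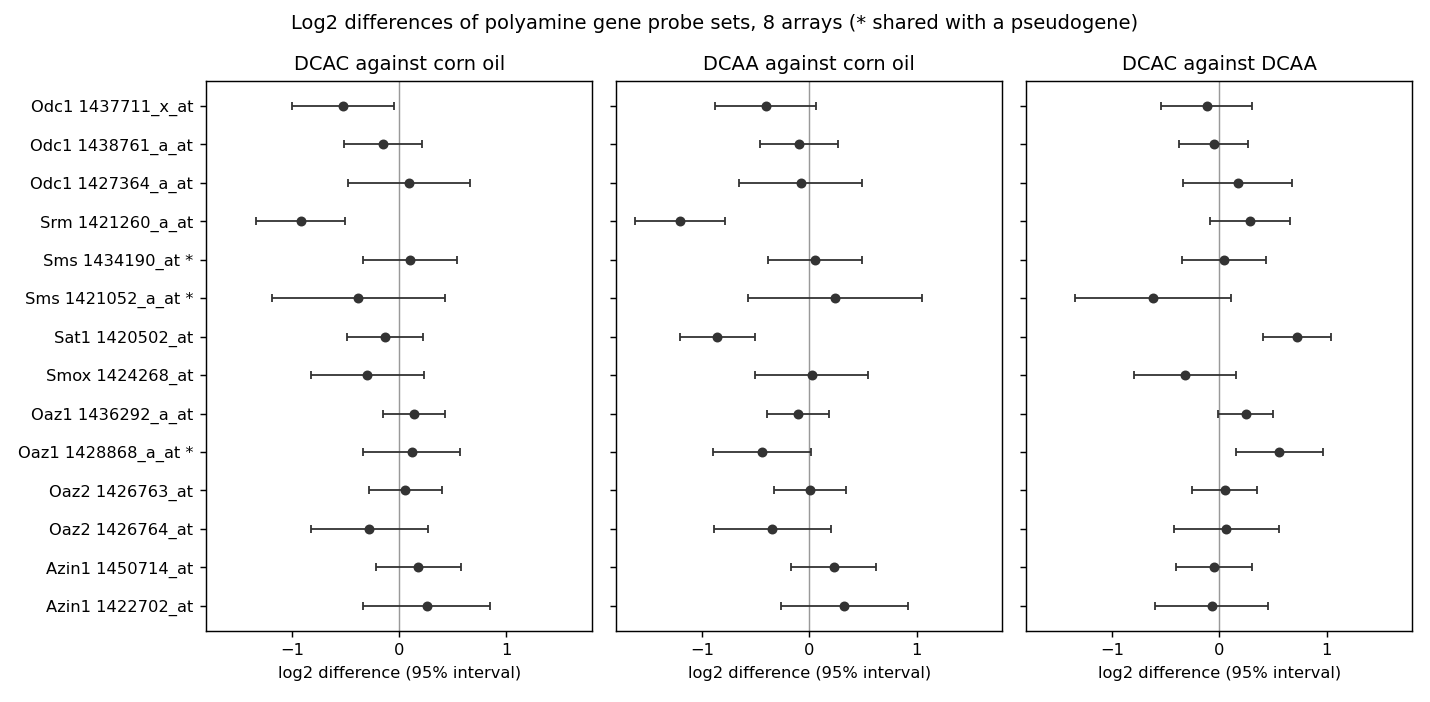
Log2 difference (point) and 95% interval (bar) of each kept polyamine probe set in 3 comparisons over 8 arrays; an asterisk marks a probe set shared with a pseudogene. Srm lies at -0.92 and -1.20 against corn oil, and Sat1 lies at 0.72 with an interval above 0 in the comparison of DCAC with DCAA.

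Outside Srm, none of the polyamine probe sets passed the test in any comparison. For DCAA against corn oil 1 of the 11 single-gene probe sets was called, which was Srm itself, beside 0.0815% of all 24531 probe sets tested; nothing is read from that count, since Srm was chosen on this comparison, and the counts that follow leave it out. Of the other 10, which stand for 6 genes, 0 were called, 1 had an unadjusted p under 0.05, beside 12.6% of all probe sets, and limma adjusted p ran from 0.0938 to 0.991. All DCAA livers lay under both corn oil livers for 3 of these 10, beside 15.6% of all probe sets, and above for 0, beside 16.1%. For DCAC against corn oil 0 were called, beside 0.0326%, with 1 of the same 10 at an unadjusted p under 0.05, beside 5.02%. There 2 of the 10 lay wholly under corn oil, beside 12.5%, and 3 wholly above, beside 11.2%. The median log2 difference of the 10 was -0.04 for DCAC and -0.09 for DCAA, and over all probe sets tested it was -0.03 and -0.01.

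The compounds were compared as 1 pair, at the same dose and time, so that the acyl chloride and the anhydride of the same acid stand side by side. Sat1 showed the greatest difference of the members. It was 1.65-fold higher with DCAC than with DCAA, a log2 difference of 0.72 (95% interval 0.41 to 1.04). It did not pass after adjustment over all probe sets (limma adjusted p = 0.403), while all 3 DCAC livers lay above all 3 DCAA livers. Srm was also higher with DCAC in every liver, by 0.28 (-0.09 to 0.66, adjusted p = 0.599), an interval that includes no difference; the DCAA arrays here are those on which Srm was chosen. The Oaz1 probe set differed by 0.25 (-0.01 to 0.50, adjusted p = 0.544) and the one shared with its pseudogene by 0.56 (0.15 to 0.97, adjusted p = 0.465). Smox went the other way, at -0.32 (-0.79 to 0.15, adjusted p = 0.634), with every DCAC liver under every DCAA liver. The 3'/5' ratio was high on all 3 DCAA arrays and, of the DCAC arrays, only on DCAC 3. The groups thus differ in ratio class as well as in compound. Once the fit allowed for that class, the log2 difference was 0.52 for Sat1 and 0.20 for Srm. It was 0.22 for the Oaz1 probe set and 0.65 for the one shared with its pseudogene. These values rest on DCAC 3.

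Odc1 differed between the compounds by -0.12 (95% interval -0.54 to 0.31), Oaz2 by 0.05 (-0.25 to 0.35) and Azin1 by -0.05 (-0.40 to 0.30) on the log2 scale. The brighter shared Sms probe set differed by 0.05 (-0.34 to 0.44). These intervals leave room for modest differences in either direction. Across the 11 single-gene probe sets 0 were called, with 1 of the 10 outside Srm at an unadjusted p under 0.05, beside 0.00408% called and 9.28% at an unadjusted p under 0.05 of all probe sets. Of those 10, DCAC lay wholly above DCAA for 2, beside 6.32% of all, and wholly under for 1, beside 7.63%.

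The genes that feed the pathway were taken from lists that leave out the members themselves. Of 14 genes of polyamine synthesis and methylthioadenosine salvage, 11 were measured and 0 passed the limma test in any comparison. Against corn oil, an unadjusted p under 0.05 was reached by 0 with DCAC (5.02% of all probe sets) and 2 with DCAA (12.6%). Their median log2 difference from corn oil was 0.05 for DCAC and 0.10 for DCAA. Arg1, the arginase that yields ornithine, differed by -0.09 with DCAC and 0.10 with DCAA. Mat1a, which makes S-adenosylmethionine in hepatocytes, differed by 0.11 and 0.06. Oat, which takes ornithine away from the pathway, differed by 0.56 with DCAC and 0.59 (SE 0.26, adjusted p = 0.385) with DCAA. Corn oil livers 1 and 3 read 8582 and 16074 for Oat, the second close to the lowest DCAA liver (16263). Both Oat differences thus rest mainly on corn oil 1. Mtap, which clears the methylthioadenosine that Srm and Sms release, differed by 0.19 with DCAC and 0.48 (SE 0.19, adjusted p = 0.328) with DCAA, where all 3 livers lay above corn oil. For later enzymes of that salvage route the DCAA difference was -0.58 (Mri1), -0.36 (Adi1), 0.16 (Apip) and 0.17 (Enoph1). Each overlapped corn oil and none passed. The lowest Mri1 reading, 274, was DCAA 3, against 650 and 504 in DCAA 1 and DCAA 2. Mat2a had no probe set of its own symbol.

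Of 11 genes of catabolism, hypusine formation and antizyme, 6 were measured and 0 passed, with medians of -0.08 for DCAC and -0.05 for DCAA. Against corn oil 0 had an unadjusted p under 0.05 with either compound, beside 5.02% of all probe sets for DCAC and 12.6% for DCAA. Dhps, which uses spermidine to begin the hypusine modification of the translation factor eIF5A, differed by -0.18 with DCAC and -0.52 (SE 0.24, adjusted p = 0.398) with DCAA, and lay under corn oil in all 6 treated livers. Dohh, which completes hypusine, differed by -0.09 and -0.19, and Eif5a itself by 0.07 and -0.06. Sat2, a relative of Sat1, differed by 0.37 with DCAA and -0.10 with DCAC and did not pass. Paox had no probe set of its own symbol. Of 12 genes of polyamine transport, 8 were measured and 0 passed. An unadjusted p under 0.05 was reached by 0 with DCAC (5.02% of all probe sets) and 1 with DCAA (12.6%). The greatest DCAA differences there were 0.95 for Atp13a4, a relative of the lysosomal polyamine exporter Atp13a2, 0.67 for Cav1, -0.61 for Gpc1 and 0.41 for Slc47a1, an exporter of organic cations. Their adjusted p ran from 0.358 for Slc47a1 to 0.815 for Gpc1. Atp13a4 read 109 and 150 in the corn oil livers, under the medians of their arrays (177 and 174). It passed the filter through treated livers only, and its highest reading, 436, was DCAA 3. Gpc1 read 46.1 and 42.4 in DCAA 1 and DCAA 2, under the floors of their arrays (56.4 and 60.5). The size of the Gpc1 difference therefore depends on the floor.

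Genes tied to MYC and growth were read beside Odc1 and Srm. In the MYC network 10 of 11 genes were measured and 0 passed. An unadjusted p under 0.05 was reached by 1 with DCAC (5.02% of all probe sets) and 0 with DCAA (12.6%). Myc differed by 0.67 (SE 0.99) with DCAC and 0.19 (SE 0.99) with DCAA, values within a wide spread. Mycn, a relative of Myc with low signal, differed by -2.23 (SE 0.54, adjusted p = 0.523) with DCAC and -0.94 with DCAA. DCAC 1 and DCAC 2 read 41.1 and 46.1 for Mycn, under the floors of their arrays (53.5 and 52.7). The size of its DCAC difference therefore depends on the floor. Mycl differed by 0.79, Mxd1 by 0.66 and Mga by 0.51 with DCAA. Of 38 nucleolar and growth genes often bound by MYC, 36 were measured and 0 passed. Their median was -0.22 with DCAA and -0.07 with DCAC. With DCAA 28 had a negative difference (50.8% of all probe sets did) and 8 a positive one. In that comparison 11 lay wholly under corn oil (15.6% of all) and 4 wholly above (16.1% of all). An unadjusted p under 0.05, in either direction, was reached by 7 with DCAA (12.6% of all) and 2 with DCAC (5.02% of all). The 7 include Apex1, which was higher with DCAA (0.41, adjusted p = 0.355). The lowest with DCAA were Nolc1, a nucleolar phosphoprotein (-1.53, adjusted p = 0.295), Tfrc, the transferrin receptor (-1.21, adjusted p = 0.163), Cad, the first enzyme of pyrimidine synthesis (-1.05, adjusted p = 0.209), and Mybbp1a (-0.68, adjusted p = 0.216). The Nolc1 value leans on DCAA 1, which read 43.3, under the floor of its array (56.4). DCAA 2 and DCAA 3 read 237.4 and 176.5, against 454.7 and 325.2 in the corn oil livers.

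Genes of the amino acid response under the transcription factor ATF4 had a median of 0.21 with DCAA and 0.07 with DCAC. Of 22 genes, 17 were measured, 0 passed, and 7 lay wholly above corn oil with DCAA (16.1% of all probe sets did). An unadjusted p under 0.05 was reached by 5 of the 17 with DCAA (12.6% of all probe sets) and by 2 with DCAC (5.02%). Fgf21, a hormone of the fasted liver, differed by 1.64 with DCAA (adjusted p = 0.359), and Trib3, a pseudokinase induced by stress, by 1.26 (adjusted p = 0.186). Fgf21 signal was low, at 99 and 45.2 in the corn oil livers, the second under the floor of its array (54.3). The size of the Fgf21 difference therefore depends on the floor, and the gene passed the filter through treated livers only. Aldh18a1, which makes a shared precursor of ornithine and proline, differed by 1.25 (adjusted p = 0.224), and Phgdh, the first enzyme of serine synthesis, by 1.14 (adjusted p = 0.487). With DCAC the same genes differed by 1.02, 0.07, 0.17 and -0.05.

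**Figure D3:**
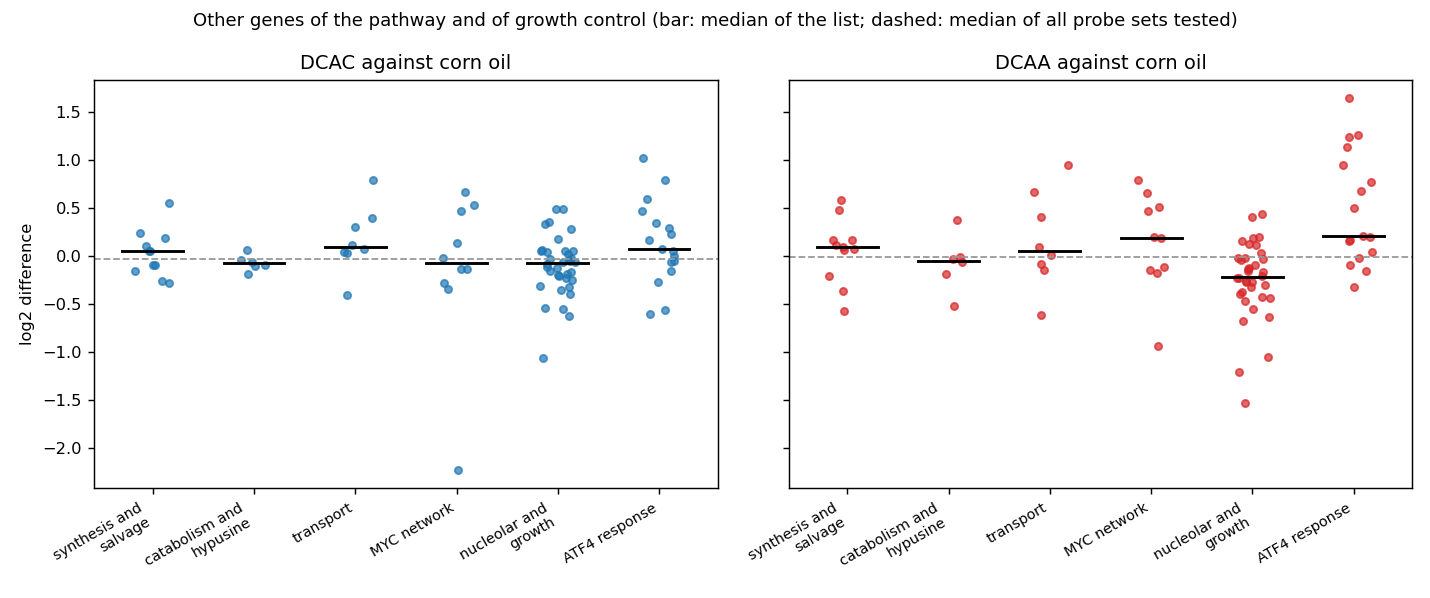
Log2 difference from corn oil with DCAC (left) and DCAA (right), 1 point per gene, for 6 lists of polyamine-related and growth genes without the members; the bar is the list median and the dashed line the median of all probe sets tested. The nucleolar and growth list has a median of -0.22 with DCAA and the ATF4 list one of 0.21, and no gene of any list passed the test.

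The genes whose pattern was most like that of Srm were found by Pearson's r of log2 signal over the 8 arrays, among 5537 genes that varied enough to be ranked. The 8 arrays share the 3 groups, so r mainly reflects differences between groups, and it is given as a description. Uap1, which makes UDP-N-acetylglucosamine, came first (r 0.980, Spearman's rho 0.905). Its signal was 1080 and 1013 in corn oil livers, 837, 714 and 701 with DCAC, and 616, 639 and 647 with DCAA. Srebf1, the transcription factor of fatty acid synthesis (r 0.978, rho 0.881), followed with 14055 and 10430, then 8081, 5900 and 6885, and 6786, 5602 and 5806. Both had the Srm order of high corn oil, intermediate DCAC 1 and low remaining livers. Next came Sec23b, a coat protein of vesicles leaving the endoplasmic reticulum (r 0.957, rho 0.810), Prmt1, an arginine methyltransferase (r 0.948, rho 0.929), and Tmed3, a cargo receptor of the early secretory pathway (r 0.946, rho 0.857).

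The genes most opposed to Srm included 3 plasma proteins and 1 chemokine. C9, the last component of complement, had r -0.981 (rho -0.881), and Cxcl1, a neutrophil chemokine, had r -0.976 with a rho of -1, so that its order over the 8 livers was exactly the reverse. Cxcl1 read 1138 and 1173 in corn oil livers, 1898, 2262 and 2191 with DCAC, and 2674, 2638 and 2769 with DCAA. Apcs, serum amyloid P (r -0.974, rho -0.786), Hp, haptoglobin (r -0.968, rho -0.833), and Eid1, an inhibitor of differentiation (r -0.949, rho -0.976), completed the 5. Their log2 differences of DCAA from corn oil were 1.22 for Cxcl1, 1.01 for Apcs, 0.93 for Eid1, 0.90 for Hp and 0.80 for C9, given without a test because these genes were picked for their pattern on the same arrays.

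**Figure D4:**
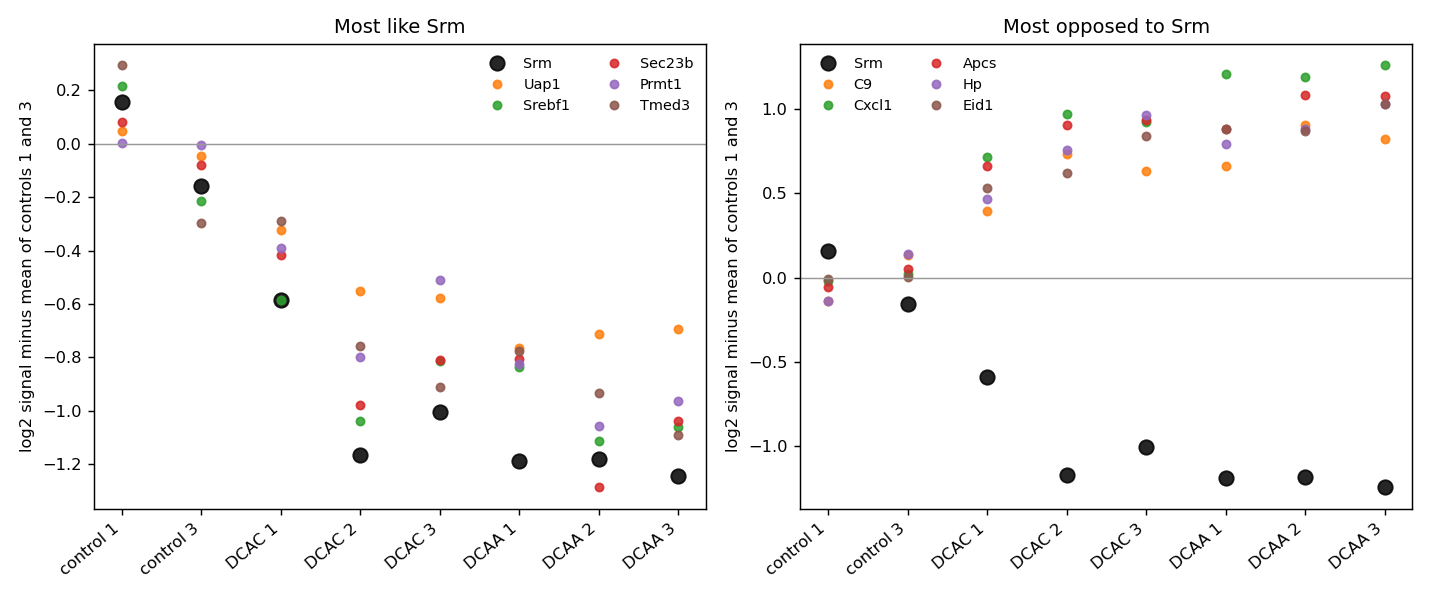
Log2 signal minus the mean of controls 1 and 3, for Srm (large black points) and the 5 genes most like it (left) or most opposed to it (right) on each of the 8 arrays. Srm, Uap1, Srebf1, Sec23b and Prmt1 step down from corn oil to DCAC 1 and then to the other treated livers, Tmed3 reads about the same in corn oil 3 and DCAC 1, and the opposed genes step up.

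On the library labelled control 2 the polyamine genes had another profile than in the 8 livers. Odc1 read 9514 and Sat1 6363, both above every other array, and the shared Sms probe set read 1499. Oaz2 read 3415, against 1273 to 1398 elsewhere. Srm at 1056 and Oaz1 at 12777 were under every other array, and Smox (398) and Azin1 (1579) lay close to or within the range of the 8. In the same library the hepatocyte markers were low and the kidney markers high, as given above, and their part in these values was not tested.

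Other cell types of the liver were followed by their markers beside these results. Over all 12 Kupffer cell and macrophage markers, the summed signal was 11334 and 38666 in the 2 corn oil livers, 11723 to 18759 with DCAC and 15767 to 17499 with DCAA. The T and NK cell markers, 11 of 12 on the array, summed to 2193 to 3251 in corn oil livers, 1595 to 1905 with DCAC and 1469 to 2036 with DCAA. The sum was lower in every treated liver, but the mean log2 signal of DCAA 3 (7.32) was level with that of corn oil 1 (7.31). Of the 6 markers tested, 4 were lower and 2 higher than corn oil with each compound. Neutrophil markers, also 11 of 12, summed to 1587 to 1819, 2842 to 3203 and 2040 to 4805, higher in every treated liver. Hepatocyte markers summed to 482360 to 496654, 475634 to 630635 and 608792 to 664907. The part of cell composition in the Srm and Sat1 values was not tested.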

How the data were processed

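Liver RNA was copied to biotin-labelled cRNA and measured on Affymetrix arrays, per the labels' protocols. Each deposited value is the linear intensity of a probe set, which the authors computed in GCOS, the manufacturer's software, per the submitters' processing notes, whose version is not given in the sources used here. Every deposited array had a trimmed mean of 500 (2% trimmed at each end). Probe sets were named from the platform annotation (34945 with 1 symbol, 932 with several, 9160 with none), and 64 control probe sets were left out.

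Each array was floored at its own 25th percentile, and log2 of the deposited intensity was taken. The 24531 probe sets that exceeded the median of their array on 3 or more arrays were tested. The 3 groups were fitted in 1 model over 8 arrays, without control 2, using lmFit and trended eBayes of limma 3.58.1 under R 4.3.3. Tests were two-sided, p was adjusted by Benjamini and Hochberg's method over all of these probe sets, and a call needs an adjusted p below 0.05. The script was tested on simulated data. A gene is represented by its kept single-symbol probe set of highest mean. A floor, an offset, filters, scalings and fits were varied as given in the closing section.

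All members are described, with other genes named by rule: Myc, Arg1, Oat, Mat1a, Mat2a, Mtap, Paox, Dhps and Eif5a, up to 4 per list by the size of the DCAA difference, and the 5 genes most like and most opposed to Srm among genes with an SD of at least 0.3. The members and lists were chosen with earlier results of these data known.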

Additional observations from a re-analysis of the deposited data

Results flagged for a closer look

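The library labelled control 2, which is outside the comparisons, had signals above 2 times the higher of the other 2 controls for several polyamine genes. The ratio was 2.65, 4.31 and 4.44 for the 3 Odc1 probe sets, 2.59 and 2.72 for the kept Oaz2 probe sets, and 2.43 and 4.77 for those shared by Sms and its pseudogene. The Oaz1 signal lay above corn oil in every DCAC liver and under it in every DCAA liver, though neither difference from corn oil passed the test, and with quantile normalization that of DCAC turned to -0.04 for the Oaz1 probe set, the side of DCAA. DCAC stood 0.25 above DCAA on the log2 scale for the Oaz1 probe set and 0.56 above it for the one shared with its pseudogene; the difference itself did not pass the limma test (adjusted p = 0.544 and 0.465).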

How the results depend on the processing

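The count of polyamine probe sets called for DCAA against corn oil was 1, of 20 calls over all probe sets. It became 0 with all 9 arrays, eBayes without trend or a block for 3'/5' ratio class, where 0 probe sets were called in all, and with quantile normalization (15 in all), a common median (9), no floor (16), no filter (4) or the replicate block (17). It was 2 with array weights, where Sat1 joined Srm and 141 were called in all. Leaving out 1 array at a time gave 0 to 1, with 0 without corn oil 1, corn oil 3, DCAC 2, DCAA 2 or DCAA 3. Since Srm was chosen on this comparison, its own call here is no evidence either way. The counts for DCAC against corn oil and against DCAA were 0 under all 21. The Srm log2 difference moved by more than the spread between livers only with all 9 arrays, to -0.71 for DCAA and -0.42 for DCAC, and otherwise kept its direction in every alternative, from -1.36 to -1.05 for DCAA when leaving out arrays. Of 396 alternative values of the other members, 362 stayed within that spread and 34 moved. Odc1 with DCAA became -0.90 with 9 arrays and 0.23 with the ratio block, whose class effect rests on DCAC 3. A common median shifted the median of all probe sets by 0.19 between DCAC and DCAA, where Sat1 became 0.91. Same-numbered mice of different groups deviated together no more than others (correlations of -0.04 to 0.03 against -0.07 to 0.07), and the replicate numbers were treated as names only. With 2 corn oil livers, modest differences of the members cannot be told from the spread.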

Other observations

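Genes of dividing cells, in which polyamine synthesis is usually high, were mostly under the filter on dim signals, with 7 of 16 measured. With DCAA their median log2 difference from corn oil was 0.81, with 1 of 7 negative (50.8% of all probe sets were). Of the 7, 3 lay wholly above corn oil (16.1% of all), 3 had an unadjusted p under 0.05 (12.6% of all) and 0 passed the limma test. A dim gene could pass the filter through the 3 DCAA arrays alone, so nothing is read from these counts. All 15 markers on the array summed to 3615 and 4071 in corn oil livers and 4043 to 4669 with DCAA, which overlap. Their mean log2 signal was 7.23 and 7.41 in corn oil livers and 7.70 to 7.73 with DCAA. Cdc20, which starts chromosome separation, differed by 1.33 (adjusted p = 0.202), Cdk1, the mitotic kinase, by 1.15 (adjusted p = 0.391), Ccna2, cyclin A2, by 1.07 (adjusted p = 0.524) and Rrm2, a subunit of ribonucleotide reductase, by 0.81 (adjusted p = 0.311). With DCAC the median was 0.27. Pcna differed by -0.37 with DCAA, and the other 6 had a positive difference.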
